A study of Mus musculus with 6 samples.

Results

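The genes described here make cholesterol and fatty acids or control their supply: 33 listed genes, chosen by name, covering the mevalonate pathway, the steps from squalene to cholesterol, the SREBP and LXR regulators, and the lipogenic enzymes. Of the 33, 31 were measured, each by the brightest probeset that the platform annotation assigns to a single gene, out of 19938 genes measured this way. Acat2, a thiolase gene at the head of the sterol pathway, and Nr1h2, one of the LXR genes, have no probeset under their symbols in that annotation and were not analysed here. The cells were 6 mouse induced pluripotent stem (iPS) lines, each 1 clone grown from a picked colony of OG2 embryonic fibroblasts, which carry a GFP reporter driven by Oct4. All 6 clones received retroviral Sox2, Klf4, Oct4 and c-Myc. The shECAD clones 4, 8 and 9 also received a short hairpin RNA against E-cadherin, and the control clones 2, 3 and 4 one against luciferase. Each clone was grown on feeder cells, which were depleted before RNA was taken, and gave 1 array (n = 3 clones per group), and the comparison asks what sets iPS lines apart when E-cadherin was knocked down during their making. The labels name no separate infections, so p-values measure the spread between clones, and the small number of arrays limits the precision.

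Cholesterol is built from acetyl-CoA through mevalonate, isoprenoid units, squalene and lanosterol. When membrane sterol is low, SCAP carries the SREBP proteins out of the endoplasmic reticulum, and the processed SREBPs enter the nucleus and switch on the genes of sterol and fatty acid synthesis. INSIG proteins hold SCAP back when sterol is plentiful. The LXR receptors respond to oxysterols and raise cholesterol export through ABCA1 and ABCG1, as well as Srebf1 and several lipogenic genes. Dividing cells depend on this supply for new membrane, and the stearoyl-CoA desaturases set how unsaturated their membrane lipids are.

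Promoters of members were searched for the letters these factors are known to read, and the 4 windows with an LXR or sterol element are shown because these letters are how the regulators are known to reach the export, lipogenic and mevalonate genes. RefSeq windows (GRCm38.p6) from 250 bases before to 50 after a start site were found for 27 of the 33 genes, 36 windows in all; Fdps, Fdft1, Sqle, Stard4, Scd1 and Scd2 have none here. Each is printed 5′ to 3′ on the strand of the gene, with the element in capitals.
Abca1, chr4:53159846-53160145, minus strand: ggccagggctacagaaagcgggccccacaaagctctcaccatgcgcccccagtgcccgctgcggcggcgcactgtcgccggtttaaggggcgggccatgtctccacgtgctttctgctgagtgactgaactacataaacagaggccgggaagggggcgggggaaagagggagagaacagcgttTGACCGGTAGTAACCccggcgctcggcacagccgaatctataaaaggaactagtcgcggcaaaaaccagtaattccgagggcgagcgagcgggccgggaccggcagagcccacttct
Srebf1, chr11:60210422-60210721, minus strand: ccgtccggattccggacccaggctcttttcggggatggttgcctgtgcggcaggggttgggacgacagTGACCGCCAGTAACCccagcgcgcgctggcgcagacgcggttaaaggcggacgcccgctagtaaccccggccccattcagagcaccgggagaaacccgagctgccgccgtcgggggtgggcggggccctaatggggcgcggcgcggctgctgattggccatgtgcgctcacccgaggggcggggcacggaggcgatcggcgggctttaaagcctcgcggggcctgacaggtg
Fasn, chr11:120824498-120824797, minus strand: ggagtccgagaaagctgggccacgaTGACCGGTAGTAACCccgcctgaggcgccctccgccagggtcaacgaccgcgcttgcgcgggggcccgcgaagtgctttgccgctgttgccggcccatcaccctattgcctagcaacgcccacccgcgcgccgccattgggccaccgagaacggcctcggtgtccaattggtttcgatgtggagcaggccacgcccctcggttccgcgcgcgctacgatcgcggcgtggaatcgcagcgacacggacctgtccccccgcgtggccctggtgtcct
Hmgcs1, chr13:119690101-119690400, plus strand: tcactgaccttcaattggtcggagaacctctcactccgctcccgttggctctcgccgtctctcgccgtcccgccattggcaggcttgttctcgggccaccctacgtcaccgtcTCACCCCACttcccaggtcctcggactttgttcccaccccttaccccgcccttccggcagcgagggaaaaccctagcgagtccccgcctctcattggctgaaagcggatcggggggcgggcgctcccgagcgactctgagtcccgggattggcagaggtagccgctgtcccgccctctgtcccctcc

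The capitals in the first 3 windows match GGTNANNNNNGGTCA on the reverse strand, a pair of nuclear receptor half-sites in direct repeat as LXR with its partner RXR reads it. The pattern was written with the known Abca1 element in mind, so its presence there is no finding. It lies at -67 to -53 from the start of Abca1, at -182 to -168 in Srebf1 and at -225 to -211 in Fasn. The letters in capitals are the same in Abca1 and Fasn. Another Srebf1 window, of a start further upstream (chr11:60222532-60222831), does not hold the pattern. Both strands of all 32851 promoter windows were searched, and 0.207% hold it, against 3 of the 36 member windows (8.33%). Abca1 is among these 3, and the members were chosen by name to cover the SREBP and LXR regulators and lipogenic enzymes. The motif shares in this paragraph are therefore a description and no test of enrichment. The sterol regulatory element TCACNCCAC is in 1.24% of all windows and, among the members, in that of Hmgcs1 alone, at -137 to -129. The E-box CACGTG is in 7 of the 36 member windows (19.4%) and 7.15% of all, and CCAAT, the letters of the SREBP partner NF-Y, in 21 (58.3%) and 37.4%. Those 7 windows belong to 6 of the 27 genes, because overlapping windows of Scap hold the same E-box. The 4 motifs do not overlap each other in the windows shown, and a match describes the letters and shows no binding.

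For most of the sterol and fatty acid genes no difference between the groups beyond the spread of the clones was detected. Of the 31 measured members, 1 rose in the shECAD clones and 0 fell at a limma adjusted p below 0.05, where 3.12% of all genes passed the same test (1.9% higher and 1.23% lower). At an unadjusted p below 0.05 there were 4 higher and 1 lower, or 5 of 31, beside 18% of all genes. The groups did not overlap in 9 of the 31 (29%), 6 higher (19.4%) and 3 lower (9.68%). Over all genes these shares were 23.6%, 11.1% and 12.5%. With both directions pooled, the members' shares are thus near those of the whole array. Taken alone, the share apart and higher was above that of all genes, a difference that was not tested. The median log2 fold change, shECAD minus control, was 0.036 over the members and 0.025 over all genes. How close these medians lay depended on the processing. They were -0.052 and -0.062 after centring each array on its median, but 0.142 and 0.003 after quantile normalization. Among genes at or above the median level they were 0.035 and -0.092. The fit also bounds the size of the differences: for 27 of the 31 members (87.1%, and 90.2% of all genes) the 95% interval lay within a 2-fold change in either direction. The exceptions were Msmo1, Abca1, Scd1 and Scd2.

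**Figure D1:**
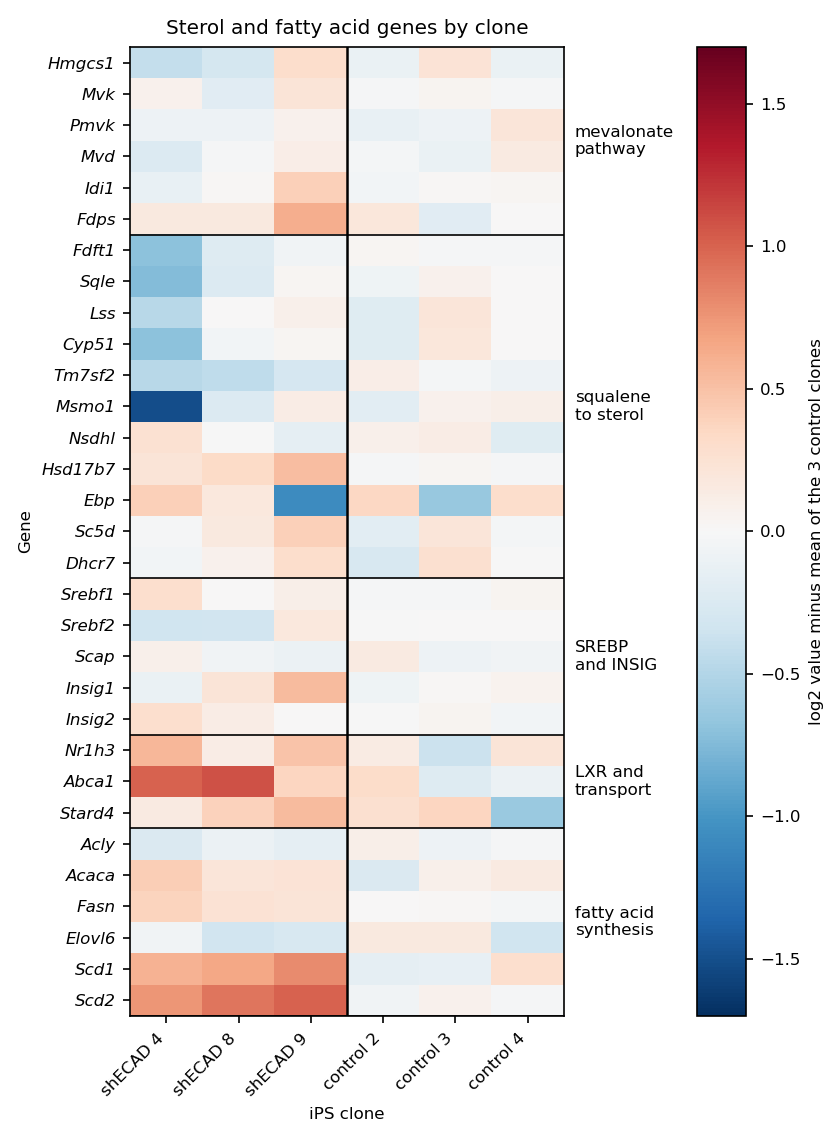
Heat map of the 31 measured genes (rows, by role) in the 6 clones (columns, shECAD left of the line). Colour gives the log2 value minus the mean of the 3 control clones. Scd2, Scd1 and Abca1 are red in all 3 shECAD clones, and Msmo1, Sqle, Cyp51 and Fdft1 are bluest in shECAD clone 4.

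**Figure D2:**
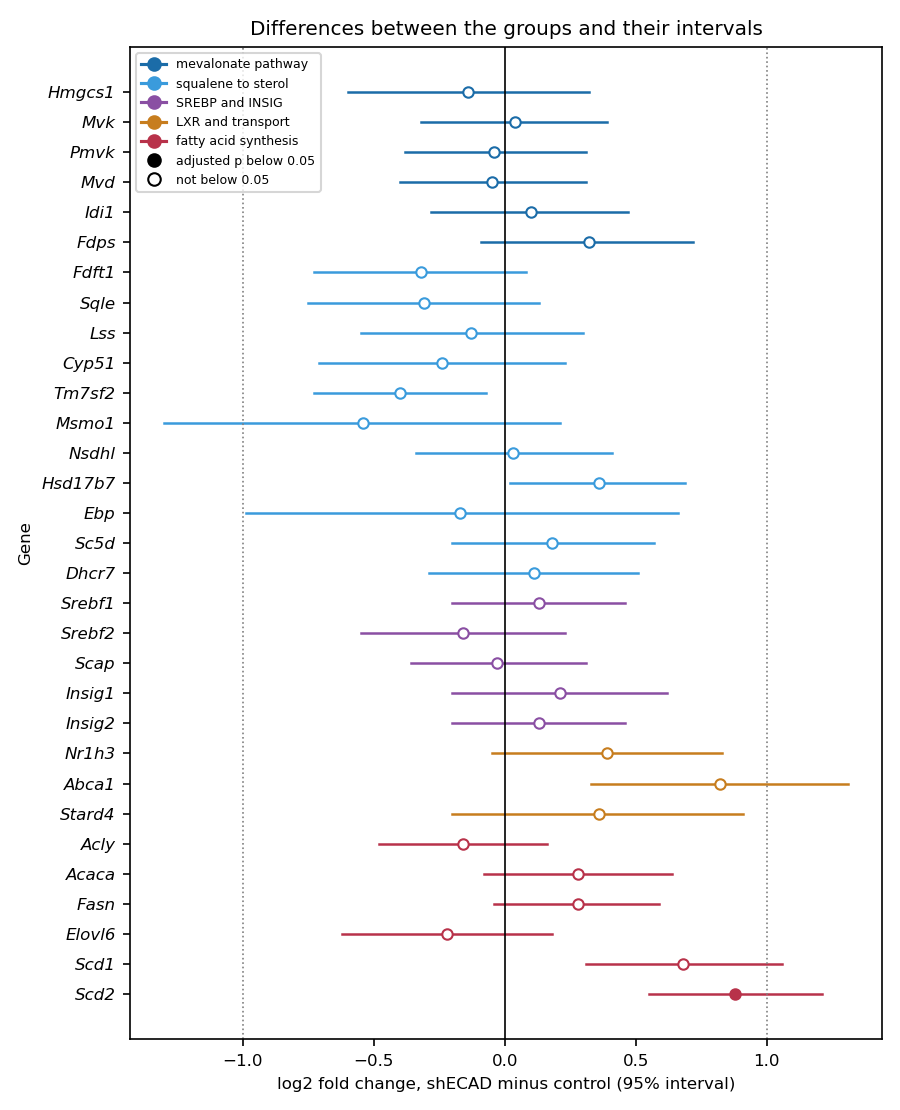
Log2 fold change, shECAD minus control, with its 95% interval for each measured gene (n = 3 clones per group), coloured by role; the filled point, Scd2, has a limma adjusted p below 0.05 and dotted lines mark a 2-fold change. For 27 of 31 genes the interval stays between the dotted lines.

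The state of the samples bears on all of these values. Cdh1, the target of the shRNA, had log2 array values, the scale of all values below, of 6.75, 6.92 and 7.81 in shECAD clones 4, 8 and 9, against 9.18, 9.60 and 9.07 in control clones 2, 3 and 4 (limma adjusted p = 0.00683). All shECAD clones were below all control clones, as labelled, at 22.9% of the control level on the linear scale. Pluripotency markers were well represented, with none of 10 below the 25th percentile of its array. By limma 0 of the 10 were called, where 3.12% of all genes were. An unadjusted p below 0.05 was found for 3, all lower in the shECAD clones, and for 18% of all genes. Of the 6 clones, shECAD clone 9 had the lowest value in 7 of the 10. Of 18 measured fibroblast and feeder markers, 11 were called higher and 0 lower by limma (61.1%, and 3.12% of all genes). At an unadjusted p below 0.05 there were 15 and 0. Their summed linear level ran from 5335 to 6264 in the shECAD clones and from 2025 to 3458 in the control clones, with 0 or 1 marker below the 25th percentile of its array in a shECAD clone and 1 to 4 in a control clone. Of 7 adipocyte markers and 10 visceral endoderm markers, 0 were called by limma, while 1 and 2 had an unadjusted p below 0.05. In lists this short, the shares of all genes given above leave few or no calls to be found. In each of the 6 clones 3 of the 7 adipocyte markers lay below the 25th percentile of the array. The summed adipocyte level was 126.3 to 135.9 in the shECAD clones and 100.5 to 130.6 in the control clones. That of the endoderm markers was 370.7 to 455.9 in the shECAD clones and 293.9 to 377.1 in the control clones. In bulk RNA a different share of cells of one type and a different amount of RNA per cell cannot be told apart.

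Scd2, a stearoyl-CoA desaturase gene on chromosome 19 (44293676-44306864, GRCm38.p6), was the member that rose. Its log2 values were 9.97, 10.12 and 10.22 in shECAD clones 4, 8 and 9, against 9.15, 9.29 and 9.20 in control clones 2, 3 and 4. Every shECAD clone lay above every control clone, by 0.67 at the closest, and the SD within each group was 0.13 (shECAD) and 0.07 (control). The means of 10.10 (shECAD) and 9.22 (control) give a 1.85-fold rise with a 95% interval from 1.47 to 2.32 (0.88 ± 0.15 SE on the log2 scale, limma adjusted p = 0.0162). The call was lost without shECAD clone 8 (adjusted p = 0.0622) or control clone 4 (0.0687), with log2 fold changes of 0.88 in both. Fibroblast markers move with the same groups, and their part in the Scd2 difference was not tested.

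Scd1, a further desaturase gene on the same chromosome (chromosome 19, 44394450-44407709), showed the same order of groups with a call just missed. It read 7.89, 7.95 and 8.10 in shECAD clones 4, 8 and 9, against 7.14, 7.16 and 7.58 in control clones 2, 3 and 4. The groups were apart by 0.31, and control clone 4 was the highest of the controls. The difference was 1.61-fold with a 95% interval from 1.24 to 2.08 (0.68 ± 0.17 SE, limma adjusted p = 0.0605). It passed the threshold once arrays were quantile-normalized (adjusted p = 0.0475), when only the brighter genes were tested (0.0364) and with a robust, intensity-dependent prior (0.0333). It did not pass after centring each array (limma adjusted p = 0.0847) or with array weights (0.0753). With any 1 clone left out it did not pass either (0.0784 to 0.169). Because the desaturase genes are close relatives, a share of signal read by both probesets cannot be told apart in these values.

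The other fatty acid genes had smaller differences. Fasn, the fatty acid synthase gene whose promoter is shown above, read 9.00, 8.87 and 8.84 in shECAD clones 4, 8 and 9 and 8.63, 8.65 and 8.60 in control clones 2, 3 and 4. The groups did not overlap, but the difference of 0.28 (95% interval -0.04 to 0.59) did not pass the test (limma adjusted p = 0.346). Acaca, which encodes the acetyl-CoA carboxylase that commits carbon to fatty acids, had a log2 fold change of 0.28 ± 0.16 (SE) with groups apart by 0.05. A second probeset of Acaca gave 0.01, with 6.33, 6.35 and 6.22 in the shECAD clones and 5.97, 6.26 and 6.63 in the control clones, so its probesets disagree. Acly, the ATP citrate lyase gene that supplies cytosolic acetyl-CoA, had a log2 fold change of -0.16, and the elongase gene Elovl6 one of -0.22, with intervals from -0.48 to 0.16 and from -0.62 to 0.18. Thus 4 of the 6 lipogenic enzymes had higher values in every shECAD clone than in any control clone (66.7%, and 11.1% of all genes) and 1, Acly, had lower ones (16.7%, and 12.5% of all genes), while 1 of the 6 passed the test.

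**Figure D3:**
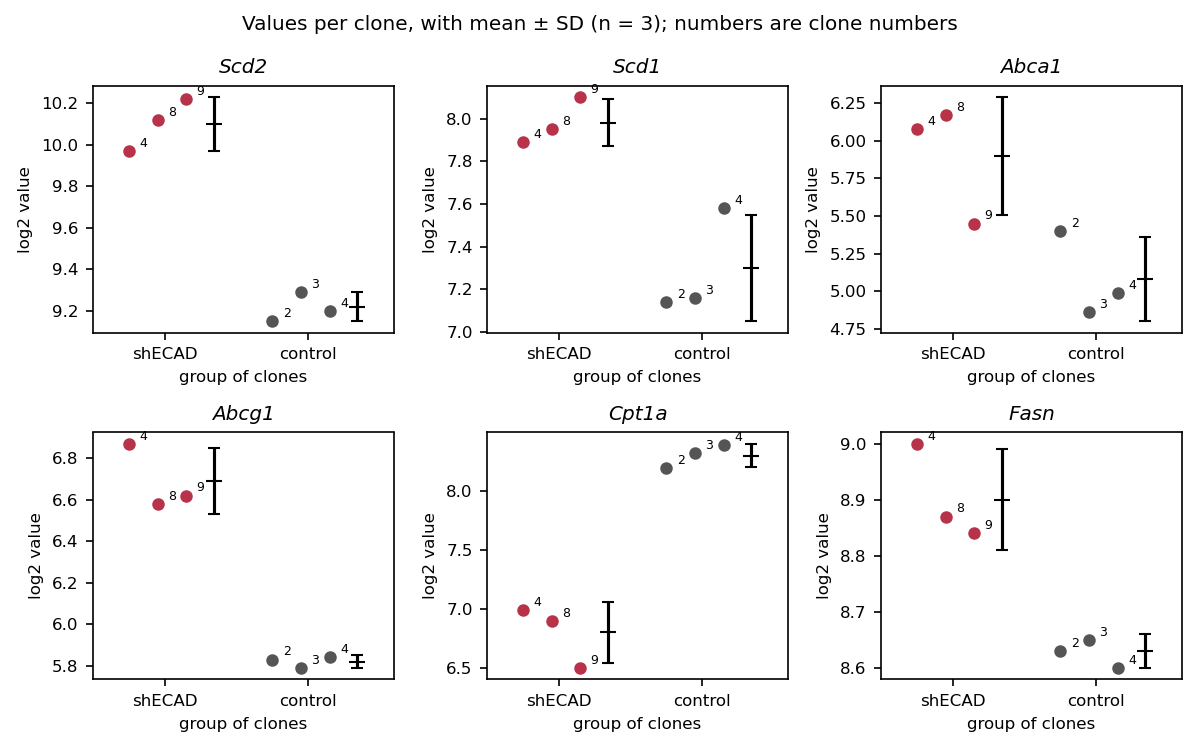
Log2 values of 6 genes in each clone (points, labelled with the clone number), shECAD left and control right, with the group mean ± SD (n = 3) drawn beside them; each panel has its own axis. Scd2, Scd1, Abca1, Abcg1 and Fasn lie higher in all 3 shECAD clones than in any control clone, and Cpt1a lower, with adjusted p-values below 0.05 for Scd2, Abcg1 and Cpt1a.

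Of the 3 measured members among the LXR genes and sterol transporters, Abca1 had the largest difference. Abca1, which exports cholesterol to lipoproteins, read 6.08, 6.17 and 5.45 in shECAD clones 4, 8 and 9, against 5.40, 4.86 and 4.99 in control clones 2, 3 and 4. The groups did not overlap, but shECAD clone 9 stood only 0.06 above control clone 2. The difference was 1.76-fold with a 95% interval from 1.25 to 2.47 (0.82 ± 0.22 SE, limma adjusted p = 0.0789). It passed the threshold with array quality weights (adjusted p = 0.0205) and without shECAD clone 9 (0.036, log2 fold change 1.04). In the other limma fits its adjusted p stayed above 0.05, from 0.0551 among brighter genes alone to 0.223 without control clone 4. Nr1h3, the gene of LXR alpha, read 4.94, 4.49 and 4.85 in the shECAD clones and 4.51, 4.01 and 4.59 in the control clones. Its groups overlapped, and the difference of 0.39 (95% interval -0.05 to 0.83) did not pass the test (limma adjusted p = 0.339). Stard4, a carrier of cholesterol between membranes, had a log2 fold change of 0.36 (interval -0.20 to 0.91), with 6.22 in control clone 4 against 7.00 to 7.39 in the shECAD clones and 7.12 and 7.21 in the other controls.

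For each of the 5 SREBP regulators the 95% interval of the difference lay within a 2-fold change. Srebf2, whose product mainly drives sterol synthesis, read 8.27, 8.28 and 8.79 in shECAD clones 4, 8 and 9 and 8.60, 8.62 and 8.61 in control clones 2, 3 and 4. The control clones were nearly equal (SD 0.01), whereas shECAD clones 4 and 8 lay below them and clone 9 above, for a difference of -0.16 (95% interval -0.55 to 0.23). Srebf1, whose product mainly drives lipogenic genes, read 6.85, 6.57 and 6.66 in the shECAD clones and 6.54, 6.54 and 6.61 in the control clones, a difference of 0.13 (interval -0.20 to 0.46). The SREBP escort gene Scap read 7.25, 7.11 and 7.07 in the shECAD clones and 7.32, 7.08 and 7.11 in the control clones, a difference of -0.03 (interval -0.36 to 0.31). Insig1, itself a well-known SREBP target, read 10.01, 10.34 and 10.66 in shECAD clones 4, 8 and 9 and 10.05, 10.14 and 10.19 in control clones 2, 3 and 4. Here shECAD clone 4 was the lowest and clone 9 the highest of the 6 clones, and the difference was 0.21 (interval -0.20 to 0.62). Insig2, the related retention factor, read 7.18, 7.02 and 6.90 in the shECAD clones and 6.89, 6.95 and 6.86 in the control clones, a difference of 0.13 (interval -0.20 to 0.46). Of these 5 regulators, 0 were called by limma and 0 had an unadjusted p below 0.05, beside 3.12% and 18% of all genes. At those shares, few or no calls would be found among any 5 genes.

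None of the 17 measured enzymes from the mevalonate pathway to cholesterol was called by limma, and 2 had an unadjusted p below 0.05, 1 higher and 1 lower, where 3.12% of all genes were called and 18% had such a p. Their median log2 fold change was -0.046, and in 16 of 17 the 95% interval lay within a 2-fold change. Among the mevalonate steps, whose median was 0, Hmgcs1, which makes HMG-CoA, had a log2 fold change of -0.14, the kinase genes Mvk and Pmvk 0.04 and -0.04, the decarboxylase gene Mvd -0.05, the isomerase gene Idi1 0.10 and the farnesyl diphosphate synthase gene Fdps 0.32. The groups overlapped in all 6. A second probeset of Idi1 gave 0.05.

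The steps after farnesyl diphosphate were less uniform. Tm7sf2, a sterol reductase gene, read 6.48, 6.52 and 6.66 in shECAD clones 4, 8 and 9, against 7.06, 6.92 and 6.87 in control clones 2, 3 and 4. All shECAD clones lay below the controls, by 0.21 at the closest, and the difference of -0.40 (95% interval -0.73 to -0.07) did not pass the test over all genes (limma adjusted p = 0.189). Hsd17b7, a ketoreductase gene of the same stretch, had the opposite order, with 7.26, 7.37 and 7.57 in the shECAD clones and 7.03, 7.08 and 7.03 in the control clones. That difference of 0.36 (interval 0.02 to 0.69) did not pass either (limma adjusted p = 0.242). These 2 sterol genes thus had differences of opposite sign, with neither called. Fdft1, the squalene synthase gene, had a log2 fold change of -0.32 with groups apart by 0.03, and its second probeset gave -0.25 with groups that overlapped. The squalene epoxidase gene Sqle had -0.31, the lanosterol synthase gene Lss -0.13, the lanosterol demethylase gene Cyp51 -0.24 and the sterol dehydrogenase gene Nsdhl 0.03. The desaturase gene Sc5d and the last reductase gene Dhcr7 had 0.18 and 0.11. The groups overlapped in these 6 genes.

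The sterol enzymes were spread more widely over the shECAD clones than over the control clones. The range over the 3 clones was wider in the shECAD group for 14 of the 17 enzymes (82.4%), as it was for 53.1% of all genes, with a median range of 0.46 in the shECAD clones and 0.33 in the control clones. Clone 4 was the lowest and clone 9 the highest shECAD clone in 12 of the 17 (70.6%), an order found in 18.8% of all genes. This order was chosen after the values were seen and is a description of these 3 clones. Of all 6 clones, shECAD clone 4 had the lowest value in 9 of the 17 enzymes (52.9%, and 13.5% of all genes) and shECAD clone 9 the highest in 8 (47.1%, and 28.7% of all genes). The summed linear level of the enzymes was 3642, 4631 and 5581 in shECAD clones 4, 8 and 9 and 4742, 5262 and 5037 in control clones 2, 3 and 4, so that shECAD clones lay on both sides of the controls. Nsdhl and Ebp, both on the X chromosome, ran against this order.

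Msmo1, the methylsterol oxidase gene, had the widest such spread of the 17. It read 8.44, 9.72 and 10.07 in shECAD clones 4, 8 and 9, against 9.77, 10.02 and 10.05 in control clones 2, 3 and 4. Clone 4 alone stood apart, and shECAD clones 8 and 9 lay within 0.05 of the range of the controls. The difference of -0.54 ± 0.34 (SE, limma adjusted p = 0.446) became -0.06 without shECAD clone 4, and those of Sqle and Cyp51 became -0.10 and 0.00. Srebf2 and Insig1 were also lowest in shECAD clone 4 and highest in clone 9. Clone 9 had the lowest mean level of the pluripotency markers, 9.19 against 9.73 and 9.78 in shECAD clones 4 and 8 and 9.64 to 9.99 in the control clones, and the highest summed level of the endoderm markers. Among the shECAD clones Cdh1 rose in the same order, with 6.75, 6.92 and 7.81 in clones 4, 8 and 9. That order was found in 18.8% of all genes. Whether the marker levels or the Cdh1 level have a part in the order of the sterol genes was not tested.

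Ebp, the sterol isomerase gene, varied widely within both groups. It read 7.04 and 6.81 in shECAD clones 4 and 8 but 5.56 in clone 9, and 6.98 and 6.93 in control clones 2 and 4 but 5.99 in clone 3. The low clones thus came 1 from each group, and the difference between the groups was -0.17 with a 95% interval from -0.99 to 0.66.

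**Figure D4:**
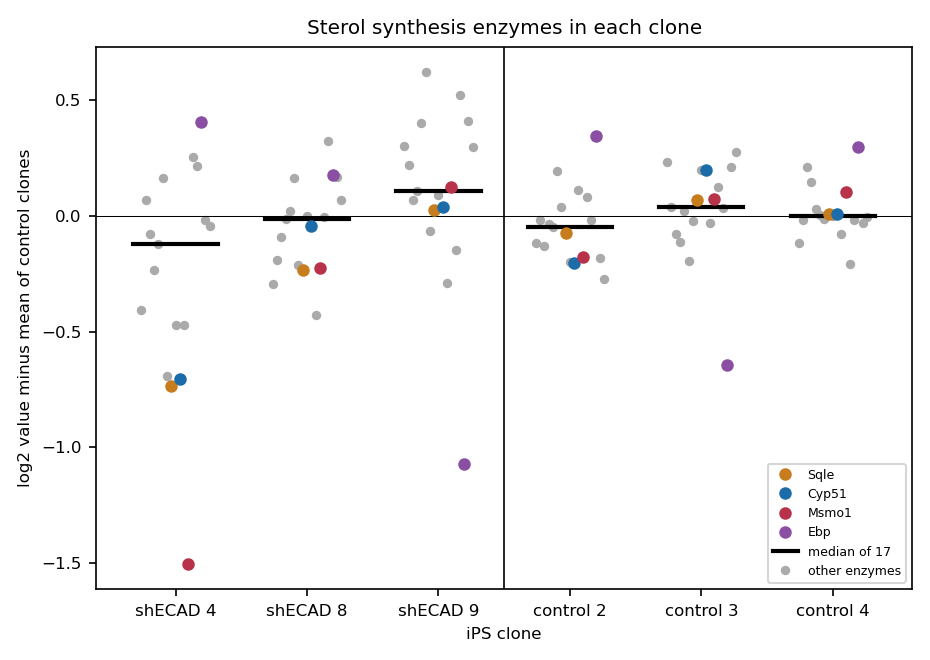
Values of the 17 measured sterol synthesis enzymes in each clone (points), as the log2 value minus the mean of the 3 control clones, with the median over the 17 as a bar. Msmo1, Sqle and Cyp51 are low in shECAD clone 4, and Ebp is low in shECAD clone 9 and control clone 3.

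Genes next to the members in lipid metabolism were read from 7 further lists of 97 genes, 86 of them measured, and 1 rose and 1 fell (3.12% of all genes passed). The gene that rose was Abcg1, a cholesterol exporter and LXR target like Abca1. It read 6.87, 6.58 and 6.62 in shECAD clones 4, 8 and 9, against 5.83, 5.79 and 5.84 in control clones 2, 3 and 4. The control clones lay within 0.05 of each other, and the rise was 1.83-fold (0.87 ± 0.15 SE on the log2 scale, limma adjusted p = 0.0181). The call was lost without shECAD clone 4 (adjusted p = 0.0646), shECAD clone 8 (0.0527), control clone 3 (0.0506) or control clone 4 (0.0705), with log2 fold changes of 0.78, 0.93, 0.85 and 0.88 in that order. Abcg1 was the only call among 14 measured genes of sterol uptake, trafficking and storage (7.14%, and 3.12% of all genes). The median log2 fold change of the 14 was -0.024. Lrp1 of this list had a larger difference, 0.96 with groups apart by 0.29, and just missed the call (limma adjusted p = 0.0534). It was called after quantile normalization, among brighter genes alone, with a robust, intensity-dependent prior, with array weights and without control clone 2. Centring each array or leaving out any other clone gave no call of Lrp1.

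The gene that fell was Cpt1a, whose product admits fatty acids to the mitochondria for oxidation. It read 6.99, 6.90 and 6.50 in shECAD clones 4, 8 and 9, against 8.19, 8.32 and 8.39 in control clones 2, 3 and 4. All shECAD clones lay far below the controls, at 35.3% of the control level on the linear scale (a log2 difference of -1.50 ± 0.17 SE, limma adjusted p = 0.00456), and the call held with any 1 clone left out. The fibroblast marker levels differ between the same groups, and their part in the Abca1, Abcg1 and Cpt1a differences was not tested. Of 14 measured genes of fatty acid oxidation, 9 had lower and 5 higher mean values in the shECAD clones, 6 were lower without overlap (42.9%, and 12.5% of all genes) and 1 higher (7.14%, and 11.1% of all genes), and the median was -0.29. The remaining 13 did not pass the test. Slc25a20 came closest, at 50.3% of the control level with groups apart by 0.33 (log2 fold change -0.99, limma adjusted p = 0.0616). It was called after centring each array, among brighter genes alone, with a robust, intensity-dependent prior, with array weights and at a threshold of 0.1. After quantile normalization or with any 1 clone left out it was not called.

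In the other 5 lists limma called 0 of 58 measured genes, and 12 had an unadjusted p below 0.05, as had 18% of all genes. Among 19 further genes of fatty acid synthesis (median 0.112) the largest differences were 0.91 for Acsl4, an acyl-CoA synthetase gene, -0.63 for the elongase gene Elovl7 and 0.59 for Me1, whose malic enzyme supplies NADPH (limma adjusted p = 0.1, 0.392 and 0.0943). Of 10 genes of SREBP processing, partners and turnover, 8 had negative log2 fold changes, as had 9230 of all 19938 genes. Largest were those of Nfyb and Nfya, which encode NF-Y subunits (-0.57 and -0.33), and Erlin1 (-0.54). The median of the 10 was -0.166. In this list 4 genes were lower without overlap (40%, and 12.5% of all genes) and 1 higher (10%, and 11.1% of all genes). Among 9 oxysterol and LXR partner genes, the hydroxylase genes Cyp7b1 and Ch25h had 0.46 and 0.42 and Nr0b2 0.35. In the isoprenoid list of 8 genes Pdss2, Fntb and Ggps1 had -0.60, -0.40 and -0.35, and in the triglyceride list of 12 genes Mgll, Gpam and Dgat1 had 0.57, -0.36 and -0.27.

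**Figure D5:**
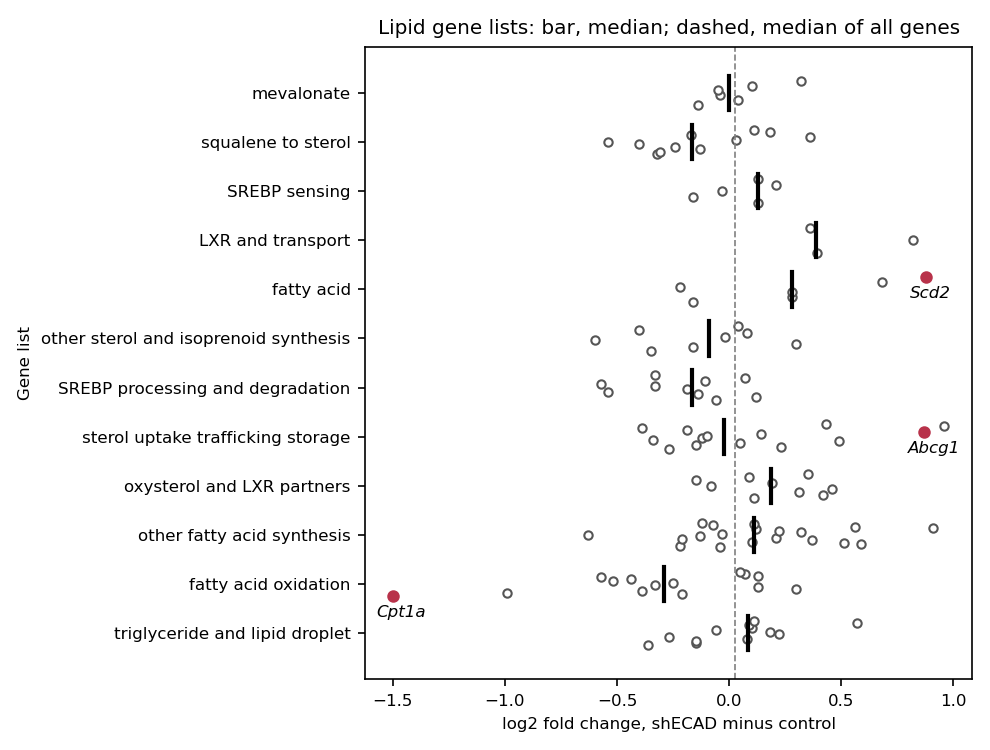
Log2 fold change, shECAD minus control, of each measured gene (points) in the member groups and the 7 further lipid lists; bars are list medians, the dashed line is the median of all genes, and filled points have a limma adjusted p below 0.05. Scd2 and Abcg1 are the filled points on the right and Cpt1a that on the left.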

How the data were processed

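RNA of 6 clones was labelled as biotinylated cDNA and hybridised to whole-transcript arrays, per the labels' protocols. The authors deposited 1 log2 value per probeset and array; the submitters' processing notes name RMA and Partek, and give neither settings nor a build in what was used here. These values entered the tests unchanged. Of 28853 probesets, 21789 have 1 gene symbol in the platform annotation, 1621 have several and were left out, and 5443 have none here. The brightest probeset per gene was kept (19938 genes). RMA values are not levels per length; sums over a list serve only to compare clones. Groups were compared with limma 3.58.1 in R 4.3.3 (lmFit, eBayes, no covariate), with Benjamini-Hochberg adjustment over all genes and 0.05 as threshold. The procedure was tested on simulated data. Intervals are moderated 95% intervals. Members and lists were chosen with earlier results of these data known. Clone values are given for called members, members with an unadjusted p below 0.05 and groups apart, the 6 largest differences, and the regulators; a few others were chosen after their values were seen. Alternatives changed scaling, filter, probeset rule, variance model, array weights, threshold and clones. Figures used matplotlib 3.10.9.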

Additional observations from a re-analysis of the deposited data

How the results depend on the processing

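Scd2 stayed higher and called under each change of scaling, filter, probeset rule, variance model and array weights, and 0 members were called lower in any setting. The members called higher numbered 2 after quantile normalization and among brighter genes alone, where 30 members were tested. They also numbered 2 with a robust, intensity-dependent prior and with array weights, and 3 at an adjusted p below 0.1. With 1 clone left out they ran from 0 to 2. The counts over all genes changed as well and are given below, so a higher member count alone is no stronger result. Calls in the 7 further lists numbered 4, 6, 5, 6 and 7 in those 5 settings, in that order, and 1 to 3 with 1 clone left out. Over all genes, centring each array on its median gave 303 higher and 377 lower, against 378 and 245 without it. Quantile normalization gave 374 higher and 203 lower. Among brighter genes alone, where 9969 of the 19938 genes were tested, 379 were higher and 402 lower. The intensity-dependent prior gave 445 higher and 374 lower, array weights 644 and 423, and the threshold of 0.1 gave 709 and 569. With 1 clone left out the counts ran from 80 to 378 higher and from 49 to 165 lower. Small differences changed sign: Mvk (-0.052) and Nsdhl (-0.053) after centring, Mvd (0.057) and Scap (0.071) after quantile normalization, and Scap (0.01) with array weights. With 1 clone left out the log2 fold change ran from -0.125 to 0.05 for Mvd, -0.233 to 0.048 for Lss, -0.075 to 0.123 for Nsdhl, -0.058 to 0.149 for Mvk, -0.051 to 0.207 for Idi1, -0.487 to 0.29 for Ebp, -0.08 to 0.048 for Scap, -0.028 to 0.246 for Dhcr7 and -0.102 to 0.069 for Pmvk. None of these genes was called in any setting, and the cause was not tested. All 31 members lay above the 25th percentile of the array in every clone, a position on the array and not a detection call. No paired analysis was possible because the groups share only 1 clone number, which the labels do not tie to a common source.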
